A study of Homo sapiens with 4 samples.

Results

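The transcript levels of 10 genes of the S100 family, S100B, S100A1, S100A2, S100A3, S100A4, S100A6, S100A10, S100A11, S100A13 and S100A16, were examined in the human melanoma cell line SK-MEL-28. The members were taken by symbol from a table of 25268 gene symbols, which holds 21 symbols of the family, and each of the 10 was found in a row of its own. The study used RNA-Seq to follow the transcriptional changes after MYC induction. The cells were infected with a lentivirus and selected with geneticin, and they carried the empty pTRIPZ vector (vector line) or a MYC gene under a Tet-inducible promoter (MYC-inducible line). Each line was kept without doxycycline (Dox) or given Dox for 54 h, and 1 library was sequenced per condition, 4 in all. Whether a line was a single clone was not given in the sources used here. Both lines were grown with G418. Below, the lines are called vector cells and MYC cells, a level given for either without further mention is that of the untreated library, and the treated libraries are called vector cells + Dox and MYC cells + Dox. With a single library per condition there is no replicate to set a difference against, so p-values are left out.

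S100 proteins are small EF-hand proteins that bind calcium, mostly as dimers, and then dock onto partner proteins inside the cell, and some are also released and bind receptors such as RAGE. S100B is a widely used marker of melanocytes and melanoma, both in tissue sections and in serum. Most S100 genes lie close together on the long arm of chromosome 1, beside the genes of the outer layers of the skin, and S100B is on its own on chromosome 21.

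Levels are in FPKM as deposited, that is, fragments scaled by transcript length and by library size, so that different genes may be set roughly side by side. The annotated transcripts of the members were short, from 434 bases for S100A6 to 1172 for S100A16. How well length was corrected for such transcripts was not examined. The depth, estimated from the steps between very low values, was approximately 35400000 to 42500000 fragments per library, and the FPKM values summed to 692146 to 715495. A change is the difference of log2(FPKM + 0.1) between 2 libraries, which understates the change of low genes, and "called" means 1.5-fold or more among the 11147 genes whose mean reached 1 FPKM. Of the 10 members, 8 passed this filter, and S100A3 and S100A4 did not. The MYC transcript was at 58.3 FPKM in vector cells, 54.8 in vector cells + Dox, 76.5 in MYC cells and 87.1 in MYC cells + Dox, so that its log2 change with Dox was 0.19 in the inducible line, which was not called. Its log2 difference was 0.67 between MYC cells + Dox and vector cells + Dox, past 1.5-fold, and 0.39 between the untreated lines, which was not called. Whether these values include reads of the introduced MYC gene was not given in the sources used here. By other assays, the paper reports that Dox raised MYC mRNA (RT-PCR) and the activity of a reporter of MYC transcriptional activity in the MYC-inducible line. How far MYC was induced in the libraries examined here was not tested beyond its FPKM. The 7 melanocyte markers MLANA, PMEL, TYR, DCT, TYRP1, MITF and SOX10 were present in each library, with a sum of 7911 FPKM in vector cells. The 10 markers of keratinocytes, epithelium, leukocytes, endothelium and fibroblasts summed to 1.07 to 3.12 FPKM per library, with KRT5 and COL3A1 at 0 in all 4 libraries.

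Promoter sequences were matched in RefSeq (GRCh38.p14) for 9 of the 10 members, with 13 start sites in all, and S100B was not matched. The 250 bases before the start site are shown for 4 members that stand for the levels and changes below. S100A1 was the most abundant, and S100A4 is a close neighbour of S100A6 with hardly any transcript. S100A6 and S100A10 were abundant and were 2.23-fold and 2.05-fold lower with Dox in MYC cells. These 4 windows are described next. They lie at chr1:153628184-153628433 on the plus strand for S100A1 and, on the minus strand, at chr1:153545807-153546056 for S100A4, chr1:153535992-153536241 for S100A6 and chr1:151993860-151994109 for S100A10. Capitals mark matches, on either strand, to TATAAA (the TATA box) or GGGCGG (the GC box).
S100A1: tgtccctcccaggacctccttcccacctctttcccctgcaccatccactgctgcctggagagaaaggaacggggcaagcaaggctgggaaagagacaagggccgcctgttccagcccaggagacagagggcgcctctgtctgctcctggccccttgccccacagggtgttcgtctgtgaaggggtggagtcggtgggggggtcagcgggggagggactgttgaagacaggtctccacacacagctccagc
S100A4: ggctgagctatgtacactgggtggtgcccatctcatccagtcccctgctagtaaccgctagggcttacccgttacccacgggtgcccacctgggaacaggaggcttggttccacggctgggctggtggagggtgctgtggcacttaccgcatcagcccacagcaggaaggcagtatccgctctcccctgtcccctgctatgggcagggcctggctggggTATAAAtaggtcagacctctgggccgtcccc
S100A6: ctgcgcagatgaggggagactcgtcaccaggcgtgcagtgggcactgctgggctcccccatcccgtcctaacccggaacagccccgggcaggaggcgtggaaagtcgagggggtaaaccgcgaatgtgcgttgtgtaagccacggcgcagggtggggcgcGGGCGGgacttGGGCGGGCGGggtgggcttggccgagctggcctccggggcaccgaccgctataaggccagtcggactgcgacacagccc
S100A10: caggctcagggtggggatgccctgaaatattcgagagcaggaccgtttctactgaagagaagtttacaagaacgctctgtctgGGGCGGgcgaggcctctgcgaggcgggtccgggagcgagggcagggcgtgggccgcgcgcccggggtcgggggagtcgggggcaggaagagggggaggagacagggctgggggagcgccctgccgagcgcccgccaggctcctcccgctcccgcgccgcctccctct
S100A4 had a TATA box that began 31 bases before the start site. S100A6 had 3 GC boxes, a pair of which overlap each other, S100A10 had 1, and S100A1 had neither motif. CACGTG, the canonical E-box that MYC binds, was in none of the 13 windows of the members and in 6.34% of the 35116 RefSeq windows of the same length. TGANTCA, the AP-1 site, was in 2 of the 13 windows, those of S100A2 and S100A3, and in 6.57% of all windows. TATAAA was in 2 of the 13, against 10.7% of all windows, and GGGCGG in 6 of the 13, against 42.6%. These are matches of letters and say nothing of whether a factor binds there.

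The members fell into abundant and scarce transcripts, with no value of a member between 6.65 and 186 FPKM. S100A1, S100A11, S100B, S100A13, S100A6 and S100A10 were each over 100 FPKM in all 4 libraries. S100A16 and S100A2 were at a few FPKM, and S100A4 and S100A3 were under 1 FPKM. Together the 10 genes had 4462 and 4470 FPKM in vector cells without and with Dox, and 4226 and 2652 FPKM in MYC cells without and with Dox. Their share of all FPKM was 0.635%, 0.629%, 0.611% and 0.371% in the same order, so the library of MYC cells + Dox stood below the other 3, which were close together.

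S100A1, best known as a regulator of calcium handling in heart and muscle, was the most abundant member. It had 1479 FPKM in vector cells, 1486 FPKM in vector cells + Dox, 1348 FPKM in MYC cells and 947 FPKM in that line with Dox. Its mean of 1315 FPKM ranked 97 among the 11147 genes, and it made up 31.9% to 35.7% of the FPKM of the 10 genes. S100A11, which binds annexin A1, followed with 967, 984, 887 and 685 FPKM in the same order of libraries. S100A1 was above S100A11 in every library, and both were above each other member in every library.
S100B, which among other targets binds p53 and the kinase STK38, had 666 and 595 FPKM in vector cells without and with Dox, and 662 and 252 FPKM in MYC cells without and with Dox. S100A13, known for its part in the release of FGF1 from cells, had 541, 626, 492 and 377 FPKM in the same order. S100B was above S100A13 in both libraries without Dox, and S100A13 was above S100B in both libraries with Dox, so the order of this pair was not fixed. The ratio of S100B to S100A1 was 0.450, 0.401 and 0.491 in the first 3 libraries and 0.266 in MYC cells + Dox.
S100A6, also called calcyclin, had 403, 404, 448 and 201 FPKM, and S100A10, the light chain of the annexin A2 tetramer and a member that does not bind calcium, had 398, 365, 382 and 186 FPKM. S100A6 was above S100A10 in each library, but in vector cells the pair lay closer together than either gene varied among the first 3 libraries.

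The scarce members were S100A16, S100A2, S100A4 and S100A3. S100A16, a broadly expressed member, had 4.98 and 6.65 FPKM in vector cells without and with Dox, and 4.0 and 3.54 FPKM in MYC cells without and with Dox. S100A2, best known from keratinocytes, had 1.44, 2.16, 1.60 and 0.775 FPKM in the same order. S100A4, linked to cell motility and metastasis through nonmuscle myosin, had 0.212, 0.160, 0.529 and 0 FPKM, and S100A3, known from the hair cuticle, had 0.211, 0.379, 0.236 and 0 FPKM. These values are small in fragments. From transcript length and depth, S100A2 rested on approximately 30.0 to 74.6 fragments per library, S100A3 on 6.17, 9.95 and 7.42 fragments and S100A4 on 4.29, 2.90 and 11.5 fragments in the first 3 libraries. The order of S100A4 and S100A3 changed between libraries.
The other 11 family symbols of the table were at or near 0. S100A7, S100A7A, S100A7L2, S100A12, S100G, S100P and S100Z were at 0 in all 4 libraries. S100A9, S100A5, S100A8 and S100A14 had at most 0.601 FPKM, a value of S100A9 in vector cells + Dox. The 6 family genes with some value and a mean under 1 FPKM, S100A3, S100A4 and these 4, were each listed at 0 in MYC cells + Dox. S100A8 was also at 0 in vector cells and in MYC cells, and S100A5 in vector cells. A background was taken from genes with transcripts under 1000 bases and a value in each of the other 3 libraries. Their mean over those 3 was 0.2 to 0.4 FPKM, and S100A5, S100A8 and S100A14 lie outside these limits. Of 92 genes within the limits, 7 (7.61%) were listed at 0 in MYC cells + Dox. The same count was 4 of 84 for MYC cells, 2 of 77 for vector cells + Dox and 2 of 91 for vector cells. No fold is given for S100A3 and S100A4 against a library in which they are listed at 0.

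In MYC cells, Dox went with lower levels of the S100 genes. S100B, S100A6, S100A10 and S100A2 were at least 1.5-fold lower, 4 of the 8 members compared, and none was higher. Among all 11147 genes 8.85% were lower and 5.9% higher by as much. The members and the threshold were chosen with earlier results of these data known, which limits this comparison. All 8 members had a negative change, with a median of -0.73, a lowest value of -1.39 and a highest value of -0.17, beside a median of -0.03 over all genes. Of all 11147 genes, 5917 had a negative change. At 2-fold or more, S100B, S100A6 and S100A10 were lower, 3 of the 8, beside 2.05% of all genes. When the libraries were scaled by the median ratio, S100A10 was just short of 2-fold, at -0.99.
S100B had the largest change of the 8, from 662 to 252 FPKM, which is 2.63-fold lower and a log2 change of -1.39, and 0.619% of all genes were lower by as much. It was 57.7% below the lowest of the other 3 libraries, which themselves spanned 595 to 666 FPKM. S100A6 went from 448 to 201 FPKM, 2.23-fold lower and a log2 change of -1.16, and was 50.2% below the lowest other library. S100A10 went from 382 to 186 FPKM, 2.05-fold lower and a log2 change of -1.04, and was 49.0% below the lowest other library. For these 3 genes the other 3 libraries differed among themselves by at most 1.12-fold. Fewer cells of a type and less RNA per cell cannot be told apart in these bulk libraries.
S100A2 had 1.60 FPKM in MYC cells and 0.775 in MYC cells + Dox, and its log2 change was -0.96 with an approximate counting error of 0.32, the largest error of the 8. With a pseudocount of 1 its change was -0.55, below 1.5-fold. A counting error is that of sampling alone and leaves out how far separate cultures would differ.
The other 4 members were lower by less than 1.5-fold. The log2 change was -0.51 for S100A1, -0.38 for S100A13, -0.37 for S100A11 and -0.17 for S100A16. The approximate counting error was 0.15 for S100A16 and between 0.0128 and 0.0292 for the 6 abundant members. Thus the 2 most abundant members, S100A1 and S100A11, changed less than S100B, S100A6 and S100A10, and the share of S100B in the FPKM of the 10 genes was 15.7% without Dox and 9.50% with Dox, while that of S100A11 was 21% and 25.8%.

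Dox in the vector line left the abundant S100 genes close to their levels without Dox. None of the 8 members was lower or higher by 1.5-fold, beside 0.44% and 0.709% of all genes. The median change was 0.02, and the median of all genes was 0.01. S100B had a log2 change of -0.16, S100A10 of -0.13, S100A6 of 0.01, S100A1 of 0.01, S100A11 of 0.03 and S100A13 of 0.21. The signs of S100A1 and S100A6 were negative when the libraries were scaled in another way, with values down to -0.01 for both. The scarce members S100A2 and S100A16 had the largest values, 0.55 and 0.41, with approximate counting errors of 0.26 and 0.13.
For all 8 members, and for 6074 of the 11147 genes, the change in MYC cells minus that in the vector line was below 0. This difference had a median of -0.75 in the members and -0.04 in all genes. It passed 1.5-fold for S100A2 (-1.50), S100B (-1.23), S100A6 (-1.16), S100A10 (-0.91) and S100A13 (-0.60), which is 5 of 8, beside 9.72% of all genes lower and 5.85% higher. With a pseudocount of 1 the value of S100A2 was -0.92, smaller in size than those of S100B and S100A6. The value of S100A13 was short of 1.5-fold with 2 other scalings, at -0.54 with the median ratio and -0.55 with the upper quartile. S100A16, at -0.58, was just short of 1.5-fold and passed it at -0.61 when the libraries were rescaled to the same sum and at -0.59 with a pseudocount of 0.01.

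The untreated lines differed little in these genes. None of the 8 members differed by 1.5-fold between untreated MYC cells and untreated vector cells, beside 0.287% of all genes lower and 0.592% higher in MYC cells. The log2 difference ran from -0.31 for S100A16 to 0.15 for S100A6, and that of S100B was -0.01, with a sign that flips between scalings (-0.05 to 0.01).
Set against vector cells + Dox, MYC cells + Dox were lower in all 8 members, and 7 of them passed 1.5-fold, beside 8.62% of all genes lower and 6.5% higher. By any amount, 5655 of the 11147 genes were lower. The log2 difference was -1.37 for S100A2, -1.24 for S100B, -1.01 for S100A6, -0.97 for S100A10, -0.89 for S100A16, -0.73 for S100A13 and -0.65 for S100A1. With a pseudocount of 1 the value of S100A2 was -0.83, smaller in size than those of S100B, S100A6 and S100A10. S100A11 was at -0.52, 1.44-fold lower. This comparison shares the MYC-inducible library with Dox with the comparison within MYC cells, so the results are not independent. All 8 members compared had their lowest value in MYC cells + Dox, as did 42.9% of the 11147 genes. S100A3 and S100A4, which are not among the 11147, were also lowest there, listed at 0.

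Partners of S100 proteins were taken from a list of 27 genes, of which 22 had a mean of 1 FPKM or more. In MYC cells 2 of the 22 were at least 1.5-fold lower with Dox and none was higher, with a median of -0.23. This share is close to the 8.85% lower among all genes. ANXA2, which binds S100A10 at the plasma membrane, had 465, 483 and 488 FPKM in vector cells, vector cells + Dox and MYC cells, and 273 FPKM in MYC cells + Dox, a log2 change of -0.84. The ratio of S100A10 to ANXA2 was 0.856, 0.756, 0.783 and 0.681 in the same order. AHNAK, a very large scaffold protein that the S100A10 and annexin A2 complex binds, went from 11.3 to 6.47 FPKM (log2 change -0.80). ANXA1, the partner of S100A11, had a log2 change of -0.47, and CACYBP, a calcyclin-binding protein, had one of 0.43. AGER, the gene of RAGE, had at most 0.988 FPKM. ANXA1, CACYBP and AGER were chosen after their values were seen.
A list of 23 other EF-hand genes, of which 19 were compared, served to set the S100 genes beside calcium-binding proteins at large. In MYC cells 2 of the 19 were at least 1.5-fold lower and none was higher, with a median of -0.17, again close to the 8.85% lower among all genes. They were NUCB2, of the nucleobindins, which went from 71.3 to 35.4 FPKM (log2 change -1.01), and CALU, a calumenin of the secretory pathway, which went from 121 to 77.9 FPKM (log2 change -0.63).
The summed level of the 7 melanocyte markers was also lowest in MYC cells + Dox. Their sum was 7911 and 7872 FPKM in vector cells without and with Dox, and 7771 and 4414 FPKM in MYC cells without and with Dox, and no marker was at 0 in any library. TYRP1 (-0.97), PMEL (-0.86), MLANA (-0.74) and TYR (-0.70) were at least 1.5-fold lower in MYC cells, 4 of 7 beside 8.85% of all genes, and the median was -0.70. DCT (-0.43), MITF (-0.42) and SOX10 (-0.30) were not called. Between MYC cells + Dox and vector cells + Dox 2 of the 7 were called lower, MLANA (-0.87) and PMEL (-0.88), beside 8.62% of all genes, and the median was -0.35, with TYRP1 at -0.15 and DCT at 0.07. Their part in the S100 result was not tested. Of the 10 markers of other cell types, only EPCAM reached a mean of 1 FPKM, and it went from 0.726 to 2.71 FPKM in MYC cells (log2 change 1.76). The 7 epidermal genes whose proteins carry an S100-like domain, such as FLG and HRNR, summed to at most 0.193 FPKM in a library.

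Of the 10 members, 9 lie on chromosome 1. Positions are those of GENCODE release 44 on GRCh37. S100A10 (151955391 to 151966335) and S100A11 (152004982 to 152020383) are 38646 bases apart at one end of the region, and 1309946 bases separate them from S100A9, the nearest S100 gene on the other side. The others follow in the order S100A6 (153507075 to 153508720), S100A4 (153516089 to 153522612), S100A3 (153519805 to 153521734), S100A2 (153533584 to 153540366), S100A16 (153579362 to 153585621), S100A13 (153591263 to 153603836) and S100A1 (153600402 to 153604515). S100B lies on chromosome 21 from 48018517 to 48025121. S100A1 is on the plus strand and the other 9 members are on the minus strand.
Neighbouring S100 genes could differ widely in level. S100A6, with a mean of 364 FPKM, is 902 bases from S100A5, which had at most 0.199 FPKM, and S100A5 is 1847 bases from S100A4. S100A13, with a mean of 509 FPKM, is 1800 bases from S100A14, which had at most 0.0599 FPKM. The change in MYC cells also differed between adjacent members, at -1.04 for S100A10 and -0.37 for S100A11.
The region between the outermost S100 genes, with 10 protein-coding genes on each side, held 63 other protein-coding genes of the table, many of them genes of the skin barrier and most of them under a mean of 1 FPKM. In MYC cells 3 of the 17 with a mean of 1 FPKM or more were at least 1.5-fold lower and none was higher, beside 8.85% lower and 5.9% higher among all genes, and the median was 0.01. They were PRR9, from 2.82 to 0.645 FPKM, SPRR2D, from 129 to 53.9 FPKM, and SLC27A3, a fatty acid transport family member, from 129 to 65.3 FPKM, with log2 changes of -1.97, -1.26 and -0.98. SPRR2D has close copies beside it, so its reads could have been split among them. The nearest coding neighbours beyond S100A1 are CHTOP, with a log2 change of 0.18, SNAPIN, with -0.31, and ILF2, with 0.29, values given here for position and chosen after they were seen.

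**Figure D1:**
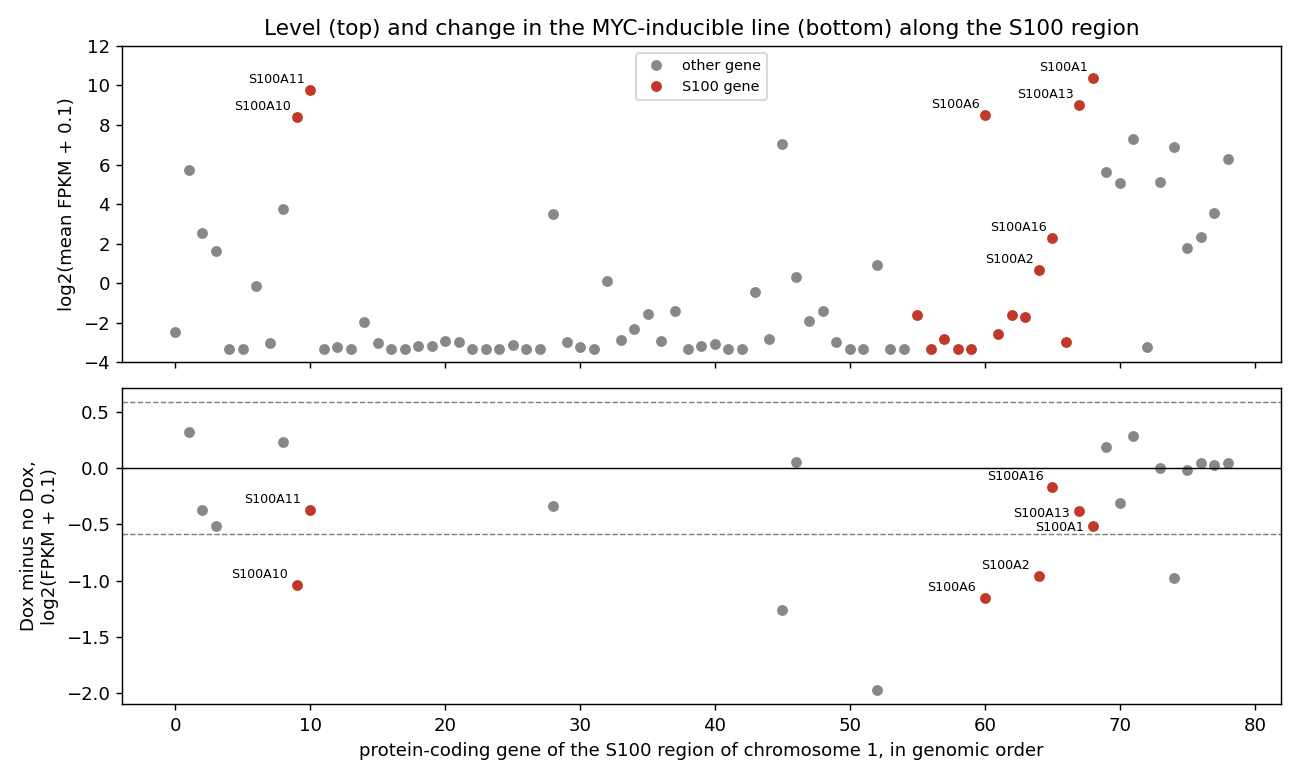
Protein-coding genes of the S100 region of chromosome 1 in genomic order (S100 genes red, others grey), with log2(mean FPKM + 0.1) over the 4 libraries in the top panel and, for genes that reached a mean of 1 FPKM, the log2 change with Dox in MYC cells in the bottom panel, dashed at 1.5-fold. The labelled S100 genes stand beside unlabelled ones under 1 FPKM, and all 7 labelled genes are below 0 in the bottom panel, while the other genes lie on both sides.

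Some members share bases with other genes in the annotation. S100A13 and S100A1 lie on opposite strands and share 3435 bases, and S100A3 lies inside S100A4 on the same strand. S100A6 and S100A11 are each overlapped by an unnamed gene on the opposite strand, S100A13 and S100A1 also share bases with unnamed genes, and S100A11 has processed pseudogenes elsewhere in the genome. These are overlaps of whole gene spans, and how many bases of exons are shared was not measured. Whether strand was used in counting, and how reads in shared bases were assigned, was not given in the sources used here, so the values of the overlapped members are uncertain to that extent. S100B, S100A10, S100A2 and S100A16 overlap no annotated gene, and the median of these 4 in MYC cells was -1.0, with 3 of 4 called lower, beside 8.85% of all genes.

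The genes with a pattern most like that of S100A1 over the 4 libraries, among genes with a mean over the libraries of 5 FPKM or more, were CHPF2, DNAJC4 and ZNF784. Their root mean square distance from S100A1, on the log2(FPKM + 0.1) scale with each gene centred on its own mean, was 0.00631, 0.0121 and 0.0133. Their changes in MYC cells were -0.51, -0.53 and -0.50. For S100B the nearest were IGFBP3, ITIH5 and CTGF, at distances of 0.0178, 0.0338 and 0.0453, with changes of -1.38, -1.40 and -1.38. IGFBP3 encodes a binding protein of insulin-like growth factors, ITIH5 an inter-alpha-trypsin inhibitor heavy chain, and CTGF a matricellular protein. The likeness rests on 4 libraries and is given as a description.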

How the data were processed

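RNA-Seq was performed on 4 libraries, 1 per condition. Per the labels, TopHat2 2.0.14, Cufflinks and the build hg19 (GRCh37) appear in the submitters' processing notes, and which annotation was used was not given in the sources used here. The deposited table holds FPKM per gene in 27032 rows. After 1 unnamed row was dropped, rows of the same symbol were summed (609 symbols had several), which gave 25268 symbols. No count model was fitted to FPKM and no test of conditions was made. Changes are differences of log2(FPKM + 0.1), called at 1.5-fold where the mean over the libraries reached 1 FPKM. The members, gene lists and thresholds were chosen with earlier results of these data known. Named are the members, other S100 genes whose mean reached 1 FPKM (there were none), ANXA2, the 3 genes nearest in pattern to S100A1 and to S100B, and genes of the other lists or of the region called in MYC cells. Outside this rule, and with their values seen, the other S100 genes under that mean, markers of the melanocyte and other cell type lists, FLG, HRNR, ANXA1, CACYBP, AGER, CHTOP, SNAPIN, ILF2 and MYC, the gene under the inducible promoter, were also named. Relative depth came from the commonest ratio between values under 0.05 FPKM, and absolute depth from the steps of low values in 195 genes with a single transcript of at least 1500 bases, whose estimates for vector cells had quartiles of 35700000 and 40900000 fragments. Fragments per gene use the annotated transcript length and are approximate, and counting errors cover sampling only. The share of short genes listed at 0 was added after seeing the data. The 1.5-fold call was tested on simulated data, with known 2-fold changes and the same noise for every gene. Depth, fragment numbers, counting errors, motif matches and nearest patterns were not tested in this way. Calculations ran in pandas 2.3.3 and numpy 2.4.6 (Python 3.11.15), with plots by matplotlib 3.10.9. Alternatives were other pseudocounts, filters, scalings, thresholds, handling of repeated symbols and references.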

Additional observations from a re-analysis of the deposited data

Results flagged for a closer look

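Among the 8 members compared, 6 had a change with Dox of opposite sign in the 2 lines, negative in MYC cells and positive in the vector line. Of all 11147 genes, 5917 had a negative change in MYC cells and 6041 had a positive change in the vector line. How many genes had both was not counted. The difference between the lines, taken on the log2 scale as the change in MYC cells less that in vector cells, was -1.50 for S100A2, -1.16 for S100A6, -0.60 for S100A13, -0.58 for S100A16, -0.52 for S100A1 and -0.40 for S100A11. These differences were not tested, since there was 1 library per condition. The vector line change was 0.01 for S100A1 and for S100A6, and it became negative under other scalings, -0.01 at the lowest for both, so for these 2 genes the sign in the vector line is not fixed. The vector line change of S100A11 was 0.03, which stayed positive but was small beside 0.11, the robust SD over all genes. S100B and S100A10 had a negative change with Dox in both lines. In the vector line their changes were -0.16 and -0.13, not far beyond 0.11 in size.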

How the results depend on the processing

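No paired analysis was possible because a condition holds only 1 library. Each member had a negative change in MYC cells under every alternative in which it was compared, which was 6 members with the filter at 5 FPKM and 4 without the overlapped members. A value counts as shifted below where it moved by more than 0.11, the robust SD of the vector-line change over all genes, which is a spread across genes and not between replicates, or where a count moved by over 1.5 times. The median change of the members in MYC cells was -0.53 with a pseudocount of 1, -1.0 without the filter, when S100A3 and S100A4 entered, -1.0 without the overlapped members, an alternative chosen after seeing the data, and -0.93 against vector cells + Dox, where 7 members were lower. Without the overlapped members the median was 0.14 in the vector line, -1.07 for the difference between the lines, with 3 members lower, and -1.11 between the lines with Dox, with 4 members lower. Without the filter the difference between the lines had a median of -1.04. Then 1 member, S100A3, was higher in the vector line and 1, S100A4, in the untreated MYC-inducible line, each on few fragments. The share of all genes without the filter was not counted. At 2-fold, 3 members were lower by the difference between the lines and 3 between the lines with Dox. The share of all genes at 2-fold was not counted for these comparisons. At 1.5-fold, 9.72% and 8.62% of all genes were lower in them. The median between the lines with Dox was -0.79 with a pseudocount of 1. The median of all genes in MYC cells ran from -0.07 to 0.02 over the scalings. Depth limits S100A2, S100A3, S100A4 and S100A16 most.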
